A study of Mus musculus with 24 samples.

Results

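The glutathione and peroxide defence genes are described here: the glutathione transferases of the soluble classes and of the membrane, the glutathione peroxidases, the peroxiredoxins, the thioredoxin reductases, the superoxide dismutases and catalase, the enzymes that make glutathione, and Nqo1 and Hmox1. Members were chosen by gene symbol in the array annotation, with earlier results of these data known. For that reason no test over the members as a set is given. The array named 49 such genes through 84 probes, and 48 of them, out of 14544 genes in all, were tested. A gene was tested through its probe with the highest mean signal among those above background on at least 3 of the 24 arrays. Gstm3 fell just outside that limit, above background on 2 arrays. Just inside it, Gsta2 was above background on 3 arrays, Gsta1 and Gstt4 on 5, Gpx5 on 6, Gpx6 on 7, Gclc on 9 and Txnrd1 on 17, while every other tested member was above it on all 24. Gsr, Prdx5 and Prdx6 have no named probe in the annotation used and were not analysed here.

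Glutathione is a tripeptide of glutamate, cysteine and glycine that cells keep at high concentration as a reductant. Peroxidases spend it to reduce hydrogen peroxide and lipid hydroperoxides, and transferases join it to reactive electrophiles or use it in metabolic isomerizations. Superoxide dismutases make the hydrogen peroxide that catalase, peroxidases and peroxiredoxins remove, and several of these genes answer to the transcription factor NRF2. C/EBPα and PPARγ are the transcription factors that drive the adipocyte programme, and fat tissue also holds macrophages, stromal and endothelial cells that carry their own peroxide defences.

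RNA of mouse subcutaneous adipose tissue was measured on 24 Illumina BeadChip arrays in 8 groups of 3, all of strain C57BL/6J. The study asked what each factor controls in mature adipocytes in the animal, per the series title. Adn-C/EBPα-/- mice and their control littermates were taken after 3 days on doxycycline chow at 10 weeks of age, after 3 days on doxycycline high fat diet at 10 weeks, and after 1 month on doxycycline high fat diet at 14 weeks. Adn-PPARγ-/- mice and their control littermates were taken after 3 days on doxycycline chow at 10 weeks. Knockouts and controls of each set of 6 arrays therefore shared the doxycycline, the diet and its duration. The labels do not spell out Adn, do not name the recombinase or the promoter that drives it, and do not describe the controls' genotype beyond littermate. They also do not say whether the 3 arrays of a group come from separate animals, so the p-values measure only the spread between these arrays, which may be technical. The authors scaled the 4 sets separately, so every difference below is a knockout against the controls of its own set, with 3 arrays against 3. Levels are background-corrected intensities in the order of the replicate numbers, and log2 differences are of log2(intensity + 16), which understates the change of dim genes.

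The targeted genes were read first. Cebpa read 436, 483 and 541 on the control arrays and 229, 258 and 216 on the knockout arrays on chow, and its log2 difference was -1.00 ± 0.14 (SE; limma, adjusted p = 0.00164). On high fat diet it read 492, 682 and 514 on the control arrays and 113, 136 and 111 on the knockout arrays at 3 days (-2.08 ± 0.14, adjusted p = 2.49e-08) and 896, 739 and 872 on the control arrays and 50.5, 78.0 and 54.1 on the knockout arrays at 1 month (-3.48 ± 0.14, adjusted p = 1.21e-12). Every C/EBPα knockout array lay below every control array of its set. Cebpa was also lower in the PPARγ knockout, at -1.38 ± 0.14 (SE; limma, adjusted p = 2.41e-06). Pparg in turn was lower where C/EBPα was deleted, at -0.54 ± 0.11 after 1 month (SE; limma, adjusted p = 0.00152). At 3 days of high fat diet Pparg was at -0.43 ± 0.11 (SE; limma, adjusted p = 0.0442, or 0.0611 in a fit over all probes). On chow it was at -0.23 (limma, adjusted p = 0.318). Its other probes were at -0.60 and -1.60 at 1 month and at -0.34 and -1.18 at 3 days, where the -0.34 was not called (limma over all probes, adjusted p = 0.486). On chow these probes were at -0.01 and -0.43, neither called (limma over all probes, adjusted p = 0.989 and 0.153). In the PPARγ knockout the array's 3 probes for Pparg did not read alike, with log2 differences of 1.10, 1.24 and -1.08. A probe outside the deleted part checks nothing, and where these probes lie relative to it was not examined, so the PPARγ labels could not be checked this way.

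Between 1 and 21 of the 48 members passed the test, depending on the set. In the C/EBPα knockout on chow 1 member was higher and none was lower by limma at an adjusted p under 0.05 over all genes, the threshold for a call throughout, which is 2.08% of the members against 1.08% of all genes tested, 0.55% higher and 0.529% lower. At an unadjusted p under 0.05, 9 members were higher and 3 lower in that set. The share of all genes at that looser threshold was not computed, so these counts cannot be set against the 1.08%. On high fat diet for 3 days 1 was higher and 2 were lower (6.25%, against 2.34% of all genes, made up of 0.811% higher and 1.53% lower). Data were simulated in a single draw with the same number of changed genes in every set, unlike the numbers called here. In that draw the share of calls that were unchanged genes was above the nominal 5% for the chow and 3 day C/EBPα sets. It was below 5% for the 1 month and PPARγ sets, but the draw is too unlike those sets to give their error share. The calls on chow and at 3 days are less certain. With only the set's own arrays fitted, none of the members called on chow or at 3 days in the C/EBPα knockouts was called. After 1 month 7 were higher and 14 lower (43.8%, against 18.1%, made up of 9.51% higher and 8.62% lower). In the PPARγ knockout on chow 7 were higher and 7 lower (29.2%, against 9.43%, 4.72% in each direction). Counts for this set include Gstt4, which passed the background limit through these knockout arrays, so nothing is supported with its test. The median log2 difference of the members was 0.07 on chow, -0.05 at 3 days and -0.04 at 1 month in the C/EBPα knockouts and 0.02 in the PPARγ knockout, while that of all genes lay between 0.00 and 0.01. The set as a whole therefore had a median near that of all genes in each comparison, and its members moved in both directions. The knockout arrays all lay above the control arrays for 10, 9, 9 and 15 members in the chow, 3 day, 1 month and PPARγ sets (9.6%, 8.9%, 17.8% and 16.7% of all genes) and all below for 3, 8, 14 and 12 (8.26%, 9.57%, 16.1% and 13.3%). Of the 48, 19 passed in no comparison, 21 in 1, 6 in 2 and 2 in 3, and none in all 4. The 2 that passed in 3 comparisons were Gstz1 and Mgst2, lower each time.

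**Figure D1:**
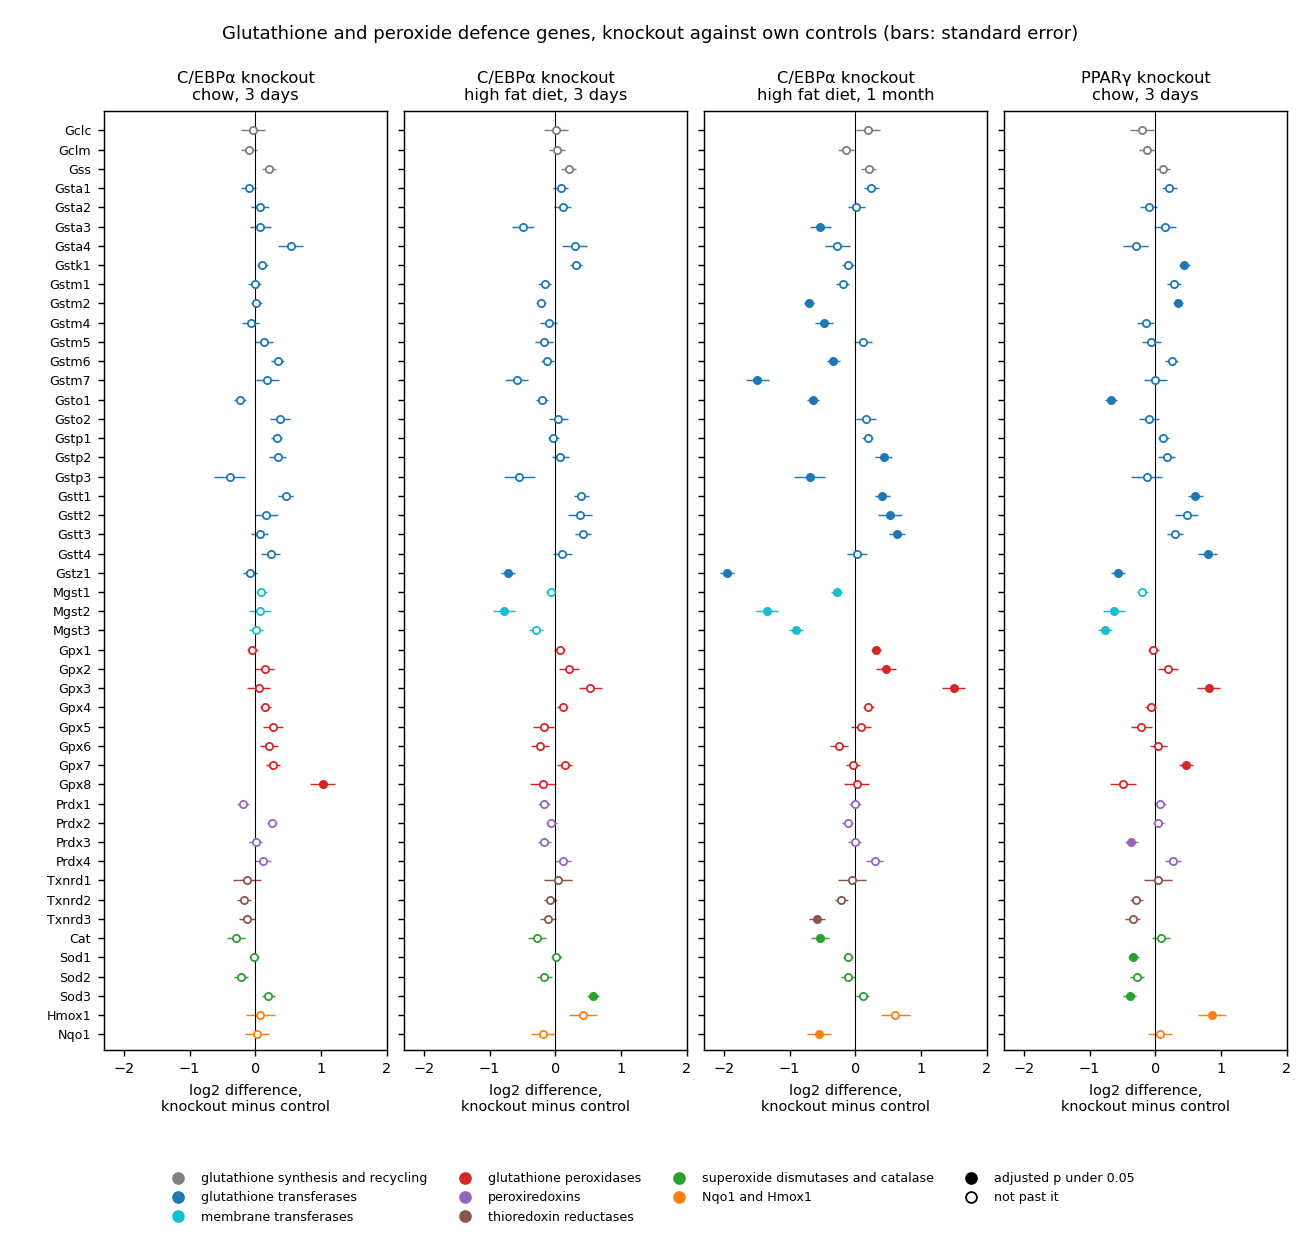
Log2 difference of each of the 48 tested members, knockout minus its own controls, in the 4 sets (x axis), with members in rows by role. Points are estimates from 3 against 3 arrays, bars are the standard error of the fit, and filled points have an adjusted p under 0.05. At 1 month Gstz1 lies lowest at -1.95 and Gpx3 highest at 1.49.

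**Figure D2:**
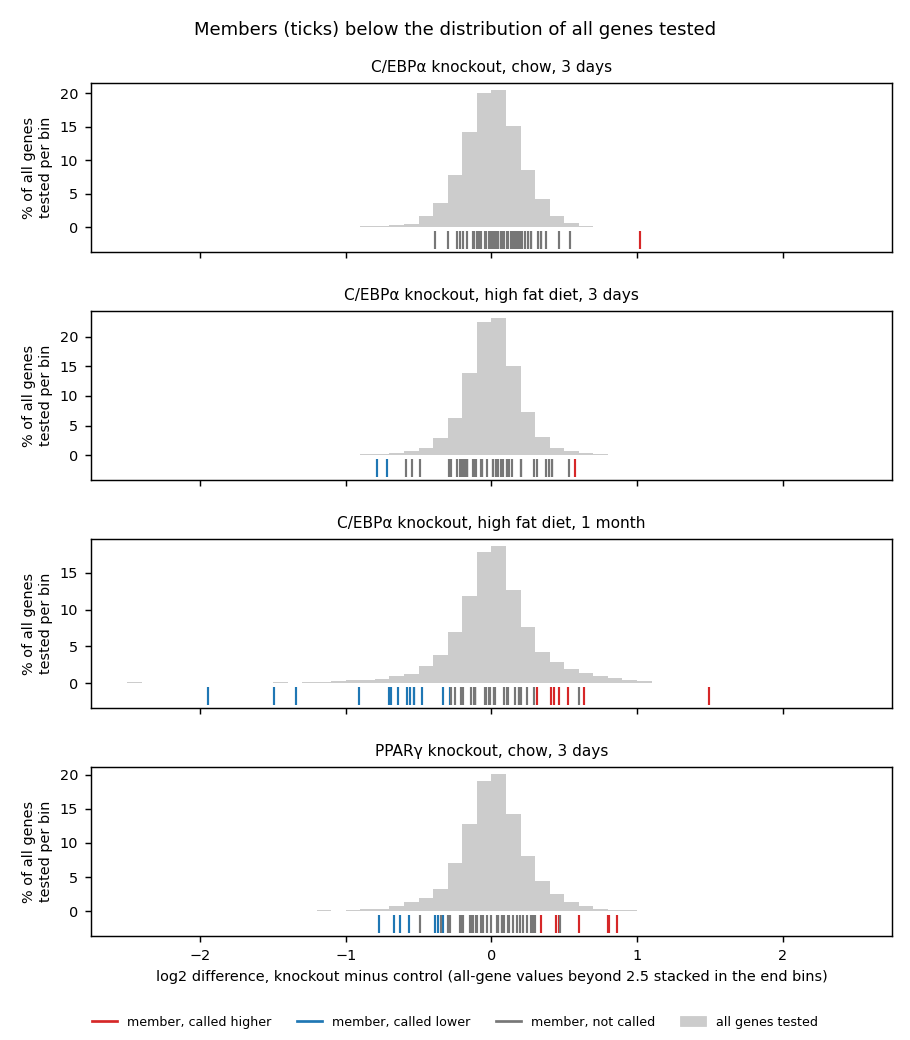
Distribution of the log2 difference over all 14544 genes tested (grey bars, percent of genes per bin) with the 48 members as ticks below it, red where called higher, blue where called lower and grey where not called. The members' medians of -0.05 to 0.07 sit at the centre of each distribution, and at 1 month the called members reach from -1.95 to 1.49.

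Markers of the cell types in the tissue moved in the same sets. All 11 adipocyte markers tested were above background, and 0, 2 and 10 of them were lower in the C/EBPα knockouts on chow, at 3 days and at 1 month of high fat diet, and 9 in the PPARγ knockout. Their summed intensity at 1 month was 118822 to 131107 in controls and 68941 to 81311 in knockouts, and in the PPARγ set 105030.0 to 114840.0 in controls and 79235 to 82641 in knockouts. Of 13 macrophage markers tested, 0, 1 and 12 were higher in the C/EBPα sets in the same order and 4 in the PPARγ set, with sums at 1 month of 27983 to 30931 in controls and 38991 to 48538 in knockouts and in the PPARγ set of 33559 to 34505 in controls and 38299 to 42497 in knockouts. Itgax was not above background. Of 11 stromal and progenitor markers, 8 were higher at 1 month (sums 29697 to 34032 in controls and 39734 to 45705 in knockouts) and 3 in the PPARγ set (33550.4 to 37034 in controls and 38939 to 44463 in knockouts). Of 11 endothelial markers, 1 was lower on chow in the C/EBPα set and 6 at 1 month (11187 to 12442 in controls and 8259.6 to 9671 in knockouts). Of 10 neutrophil markers 1 was higher in the PPARγ set, and 1 was higher and 2 lower at 1 month. In the PPARγ set 1 of 6 red blood cell and 1 of 4 lymph node stroma markers were higher. None of 9 lymphocyte, 9 skeletal muscle or 6 epithelial markers passed the limma test in any set, and Krt18, Epcam, Csn2, Wap and Elf5 were not above background. Skeletal muscle sums ranged widely among arrays of a group, from 406 to 12454 in the 3 day controls. In whole tissue, fewer cells of a type and less RNA per cell cannot be told apart, and the part of these markers in the results below was not tested.

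No gene of glutathione synthesis passed the test in any set, by limma at an adjusted p under 0.05 or at an unadjusted p under 0.05. Gclc and Gclm, the catalytic and modifier subunits of glutamate-cysteine ligase, which starts glutathione synthesis, and Gss, glutathione synthetase, had log2 differences between -0.10 and 0.21 on chow, 0.01 and 0.20 at 3 days, -0.14 and 0.20 at 1 month, and -0.20 and 0.12 in the PPARγ set, as lowest and highest of the 3 each time. Gclc read 6.08, 3.30 and 3.81 on the control arrays and 4.91, 10.8 and 6.37 on the knockout arrays at 1 month, and it was above background on 9 of the 24 arrays.

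Among the glutathione peroxidases, Gpx3 had the largest difference and was higher in both the 1 month C/EBPα knockout and the PPARγ knockout. Gpx3 is the secreted peroxidase found in plasma. At 1 month it read 7416, 5004 and 7217 on the control arrays and 20779, 13742 and 21023 on the knockout arrays, a 2.82-fold higher level with a log2 difference of 1.49 ± 0.17 (SE; limma, adjusted p = 2.42e-06). In the PPARγ set it read 12365, 12977 and 11919 on the control arrays and 22582, 21499 and 21292 on the knockout arrays, and the difference was 0.81 ± 0.17 (SE; limma, adjusted p = 0.00414). The knockout arrays lay above all control arrays in both sets. At 3 days on high fat diet it was 0.53 and on chow 0.05, neither past the threshold. The 1 month effect exceeded the 3 day effect by 0.96 ± 0.24 (SE; limma, adjusted p = 0.0445), a call that was lost with no filter, the most variable probe, all probes or only the arrays of the sets compared, and in 18 of 24 fits that each left out 1 array (adjusted p 0.0121 to 0.143).

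The other peroxidases gave smaller differences. Gpx1, the abundant cytosolic enzyme, read 24313, 23863 and 22929 on the control arrays and 29089, 28883 and 30235 on the knockout arrays at 1 month (0.31 ± 0.08, adjusted p = 0.00843), with no overlap. Gpx2, best known from the gut lining, read 28.6, 34.3 and 14.4 on the control arrays and 44.6, 41.3 and 35.3 on the knockout arrays at 1 month, a dim signal (0.46 ± 0.15, adjusted p = 0.0349). Gpx7, a peroxidase of the endoplasmic reticulum, read 641, 552 and 751 on the control arrays and 862, 939 and 886 on the knockout arrays in the PPARγ set (0.47 ± 0.11, adjusted p = 0.00944), also without overlap. Gpx8, its relative in the same compartment, was the only member to pass in the C/EBPα knockout on chow, where it read 1695, 901 and 1418 on the control arrays and 2671, 3532 and 1955 on the knockout arrays. The knockout arrays were all above the control arrays, by 1.02 ± 0.20 (SE; limma, adjusted p = 0.0130), and both of its other probes were called higher too. In the PPARγ set Gpx8 was not called, at -0.49 ± 0.20 (SE; limma, adjusted p = 0.130): its used probe did not pass, while its other probes were at -0.75, adjusted p = 0.0166 and -0.68, adjusted p = 0.0108 in a fit over all probes. On chow the PPARγ effect minus the C/EBPα effect was -1.51 ± 0.28 (SE; limma, adjusted p = 0.00467) for this gene. Gpx4, which reduces lipid hydroperoxides within membranes, stayed between -0.07 and 0.20 with its brightest probe and passed in no set, while in the PPARγ set its other probes were at -0.62, adjusted p = 0.0317 and -0.30, adjusted p = 0.131 in the fit over all probes. The dim Gpx5 and Gpx6 passed in no set.

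Leaving out 1 array ended some of these calls. Gpx8 lost it without control array 2 (0.76) or knockout array 2 (0.81), with adjusted p from 0.00625 to 0.0565 over the 24 fits, and also with only the arrays of its set in the fit or with a replicate block. For Gpx7 this happened without control array 2 (0.36), with adjusted p from 0.00323 to 0.0794 over the 24 fits, and for Gpx2 without control array 3 (0.25), knockout array 1 (0.41) or knockout array 2 (0.45), with adjusted p from 0.00910 to 0.261 over the 24 fits, and with only the arrays of its set.

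Gstz1 carried the largest decrease of any member. It encodes maleylacetoacetate isomerase, a step of tyrosine breakdown that uses glutathione. In the C/EBPα knockout it read 17686, 16491 and 17585 on the control arrays and 4335, 4247 and 4815 on the knockout arrays at 1 month, 3.86-fold lower, and its log2 difference was -1.95 ± 0.11 (SE; limma, adjusted p = 1.67e-10). At 3 days on high fat diet it read 11198, 12753 and 10698 on the control arrays and 6569.9, 8050.0 and 6491 on the knockout arrays, with -0.72 ± 0.11 (SE; limma, adjusted p = 5.79e-04). In the PPARγ set it read 12834, 13118 and 13930.1 on the control arrays and 9271, 9180.1 and 8514 on the knockout arrays, with -0.56 ± 0.11 (SE; limma, adjusted p = 0.00184). In each of these sets every knockout array lay below every control array. On chow the C/EBPα knockout showed no call for it, at -0.09. The 1 month effect minus the 3 day effect was -1.23 ± 0.15 (SE; limma, adjusted p = 1.53e-04), and the PPARγ effect minus the 1 month C/EBPα effect was 1.38 ± 0.15 (SE; limma, adjusted p = 5.67e-06). The 3 day call was lost when only the 6 arrays of its set were fitted.

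Gsto1, an omega class enzyme with dehydroascorbate reductase activity, fell in the 1 month C/EBPα set and in the PPARγ set in the same direction. It read 2383, 2256 and 2132 on the control arrays and 1572, 1379 and 1373 on the knockout arrays at 1 month (-0.64 ± 0.09, adjusted p = 3.19e-05). In the PPARγ set it read 2871, 2812 and 2657 on the control arrays and 1881, 1604 and 1749.5 on the knockout arrays (-0.67 ± 0.09, adjusted p = 6.72e-05). The groups overlapped in neither. Its neighbour Gsto2 passed in no set, with values from -0.10 to 0.37. Gstk1, the kappa class enzyme of mitochondria and peroxisomes, read 2840.4, 3112 and 3117 on the control arrays and 4295, 4274 and 3779 on the knockout arrays in the PPARγ set, all knockout arrays being above the controls (0.44 ± 0.09, adjusted p = 0.00240). At 1 month in the C/EBPα set it was -0.11, and the PPARγ effect was above that by 0.55 ± 0.12 (SE; limma, adjusted p = 0.00964). Both calls rest on the brighter of its 2 probes. With the more variable probe the PPARγ value was 0.32 (adjusted p = 0.684) and the difference from the 1 month effect 0.12 (adjusted p = 0.968), by limma.

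**Figure D3:**
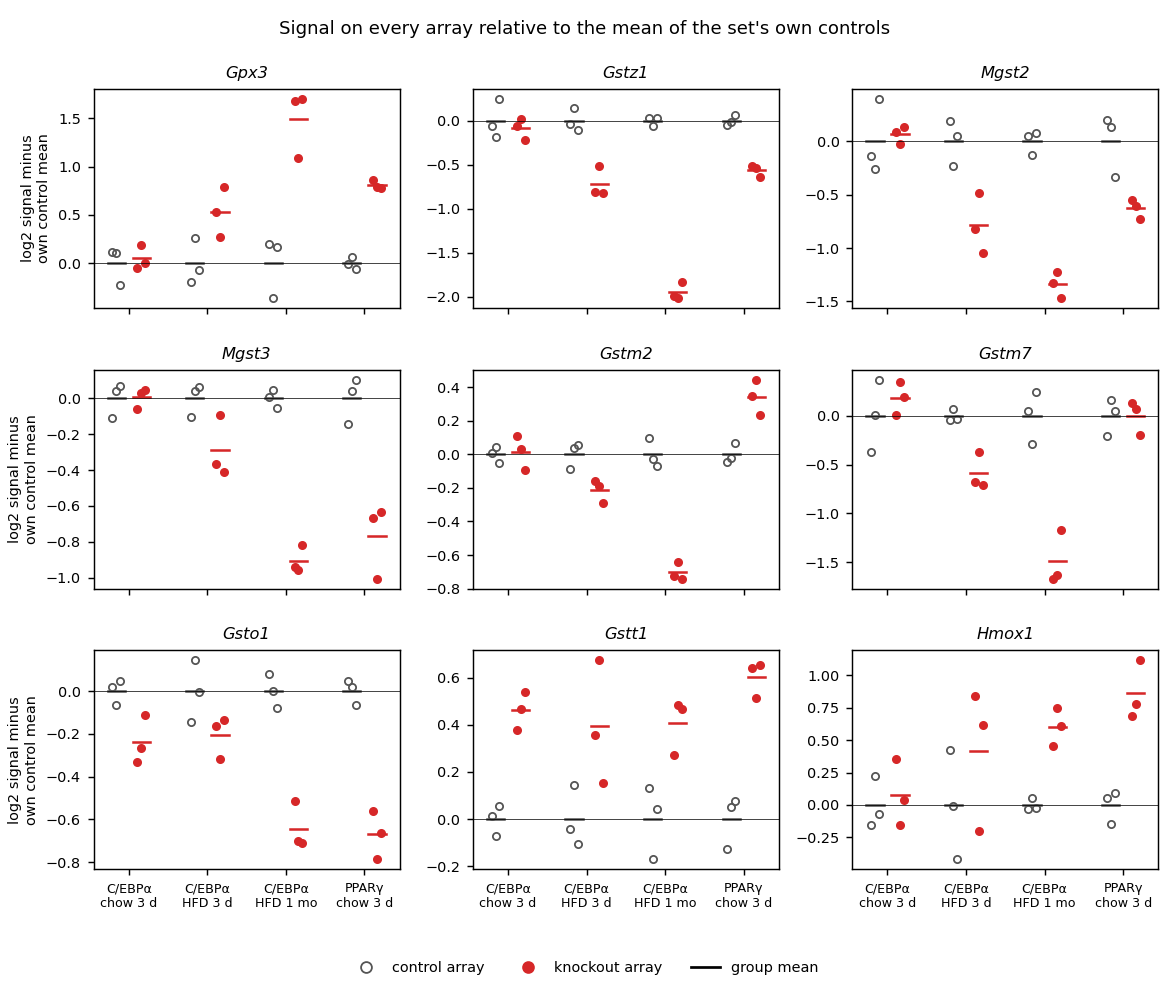
Log2 signal of 9 members on every array minus the mean of the control arrays of the same set (y axis, log2 units), for the 4 sets (x axis). Open points are control arrays, filled red points knockout arrays, and short lines group means. The Gstz1 group means in the C/EBPα knockouts are -0.09 on chow and -0.72 and -1.95 on high fat diet at 3 days and 1 month, while Gstm2 lies below its controls at 1 month and above them in the PPARγ set.

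The mu class genes lie side by side on chromosome 3 of GRCm38.p6, in the order Gstm5, Gstm7, Gstm6, Gstm3, Gstm2, Gstm1 and Gstm4, with no other protein-coding gene between them in the RefSeq annotation. They conjugate glutathione to aromatic and other electrophiles. At 1 month Gstm7, Gstm2, Gstm4 and Gstm6 were lower in the C/EBPα knockout. Gstm7 read 106, 80.0 and 124 on the control arrays and 21.0, 22.0 and 36.2 on the knockout arrays, 2.81-fold lower at -1.49 ± 0.18 (SE; limma, adjusted p = 3.26e-06). Gstm2 read 11071, 10141 and 9838 on the control arrays and 6259, 6631 and 6176 on the knockout arrays, with -0.70 ± 0.08 (SE; limma, adjusted p = 1.95e-06) and both of its other probes called lower as well. Neither gene's groups overlapped. Gstm4 and Gstm6 fell by less, at -0.48 ± 0.13, adjusted p = 0.0153, and -0.33 ± 0.10, adjusted p = 0.0198. Gstm1 and Gstm5 did not pass, at -0.20 and 0.11.

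In the PPARγ knockout no gene of this class was called lower. Gstm2 read 7026, 7149 and 7619.6 on the control arrays and 9236, 9888 and 8554 on the knockout arrays, so it was higher there (0.34 ± 0.08, adjusted p = 0.00809), and Gstm7 was not called, at 0.00. The PPARγ effect stood above the 1 month C/EBPα effect by 1.04 ± 0.11 (SE; limma, adjusted p = 3.83e-06) for Gstm2, by 1.49 ± 0.25 (SE; limma, adjusted p = 7.20e-04) for Gstm7 and by 0.58 ± 0.14 (SE; limma, adjusted p = 0.0152) for Gstm6. For Gstm2 the 1 month effect minus the 3 day effect was -0.49 ± 0.11 (SE; limma, adjusted p = 0.0260), a call lost with the most variable probe, with only the arrays of the sets compared or with a replicate block. The PPARγ call of Gstm2 was lost without knockout array 2 (0.29), with adjusted p from 0.00678 to 0.0566 over the 24 fits, and with the most variable of its probes or only the set's arrays. At 1 month the call of Gstm4 was lost without control array 1 (-0.35) or knockout array 2 (-0.42), with adjusted p from 0.00931 to 0.113 over the 24 fits, and that of Gstm6 without control array 1 (-0.25) or knockout array 1 (-0.29), with adjusted p from 0.0149 to 0.127 over the 24 fits, and with only the arrays of its set.

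Promoters are shown for 4 transferases whose results stand out: Gstz1 with the largest fall, Gstm7 and Gstm2 that fell at 1 month within 1 gene cluster, and Gstt1 that was higher in 2 sets. Each runs from 250 bases before to 50 after the start site given by RefSeq in GRCm38.p6, 5′ to 3′ on the gene's strand. Capitals mark the C/EBP palindrome core TTGCNNAA or the antioxidant response element core TGACNNNGC, searched on both strands. Gstm7 is shown at the RefSeq start that holds a match, its other start having none. Coordinates are chr12:87146915-87147214, plus strand for Gstz1, chr3:107931565-107931864, minus strand for Gstm7, chr3:107986371-107986670, minus strand for Gstm2 and chr10:75797682-75797981, minus strand for Gstt1.
Gstz1: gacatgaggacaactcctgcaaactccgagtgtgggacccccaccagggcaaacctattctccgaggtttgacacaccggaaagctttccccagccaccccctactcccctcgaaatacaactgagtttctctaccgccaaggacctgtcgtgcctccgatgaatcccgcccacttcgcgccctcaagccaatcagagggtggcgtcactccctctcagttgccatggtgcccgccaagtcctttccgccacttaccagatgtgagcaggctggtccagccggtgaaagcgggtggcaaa
Gstm7: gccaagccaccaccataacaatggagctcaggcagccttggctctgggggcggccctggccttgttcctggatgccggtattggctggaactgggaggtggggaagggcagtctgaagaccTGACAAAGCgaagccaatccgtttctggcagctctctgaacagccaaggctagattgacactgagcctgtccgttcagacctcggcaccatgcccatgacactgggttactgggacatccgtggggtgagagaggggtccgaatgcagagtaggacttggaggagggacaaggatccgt
Gstm2: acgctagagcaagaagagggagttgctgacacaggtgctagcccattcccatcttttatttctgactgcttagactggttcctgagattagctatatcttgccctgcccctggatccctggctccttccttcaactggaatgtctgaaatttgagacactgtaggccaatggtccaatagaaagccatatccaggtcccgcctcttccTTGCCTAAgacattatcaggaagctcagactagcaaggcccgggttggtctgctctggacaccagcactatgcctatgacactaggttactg
Gstt1: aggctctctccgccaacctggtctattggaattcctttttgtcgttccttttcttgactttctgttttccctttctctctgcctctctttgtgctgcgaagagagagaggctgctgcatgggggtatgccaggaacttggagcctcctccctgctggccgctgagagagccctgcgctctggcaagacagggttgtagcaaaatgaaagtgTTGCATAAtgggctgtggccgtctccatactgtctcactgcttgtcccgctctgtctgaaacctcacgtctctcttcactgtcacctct
The match begins at -129 from the start site in Gstm7, where it is TGACNNNGC, and at -42 in Gstm2 and -39 in Gstt1, where it is TTGCNNAA, while Gstz1 has neither in this window. RefSeq promoters were found for 43 of the 48 members, 57 in all. TGACNNNGC occurred in 14.0% of them against 12.4% of all 32851 promoters of the table, and TTGCNNAA in 10.5% against 10.8%. The direct repeat bound by PPAR and RXR, AGGTCA and AGGTCA with 1 base between, occurred in none of the 57 and in 0.0396% of all. These are letter matches only and say nothing of binding.

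The theta class lies on chromosome 10 in the order Gstt3, Gstt1, Gstt4 and Gstt2, and its enzymes act on small halogenated compounds. At 1 month its called genes were higher, where those of the mu class were lower. Gstt1 read 1111, 1256 and 1279 on the control arrays and 1904, 1739.8 and 1918 on the knockout arrays in the PPARγ set (0.60 ± 0.11, adjusted p = 0.00164). At 1 month it read 2841, 2301 and 2669.8 on the control arrays and 3136, 3633 and 3596 on the knockout arrays (0.41 ± 0.11, adjusted p = 0.0149). All knockout arrays were above the controls in both sets. Its log2 difference was 0.46 on chow and 0.39 at 3 days in the C/EBPα knockouts, short of the threshold. Gstt3 read 300.0, 219 and 251 on the control arrays and 349.9, 469 and 400.1 on the knockout arrays at 1 month (0.63 ± 0.13, adjusted p = 0.00124), although its dimmer probe had the opposite sign without a call. Gstt2 read 433, 243 and 276 on the control arrays and 507, 379 and 477 on the knockout arrays at 1 month, and its lowest knockout array lay below its highest control array (0.53 ± 0.18, adjusted p = 0.0459). Gstt4 read 3.48, 12.2 and 5.26 on the control arrays and 25.2, 26.4 and 19.1 on the knockout arrays in the PPARγ set (0.80 ± 0.14, adjusted p = 0.00111). That signal is very dim: 1 of 3 control arrays was above background, and 3 of the 5 arrays through which the gene entered the test were these knockout arrays, so it passed the limit through the group where it is high and nothing is supported with its test. For Gstt4 the PPARγ effect exceeded the 1 month C/EBPα effect of 0.02 by 0.77 ± 0.20 (SE; limma, adjusted p = 0.0308). Without background correction this difference was 0.19, and that and the replicate block ended its call. The 1 month call of Gstt1 was lost without control array 2 (0.32), knockout array 2 (0.37) or knockout array 3 (0.38), with adjusted p from 0.00515 to 0.0924 over the 24 fits. That of Gstt2 held in 10 of 24 such fits and was lost without control array 2 (0.37), control array 3 (0.45), knockout array 1 (0.45) or knockout array 3 (0.49), with adjusted p from 0.00374 to 0.237 over the 24 fits, and without 10 arrays of other sets. It was also lost under 5 of 12 other settings, and with the most variable probe it was 0.07 (limma, adjusted p = 0.862).

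In the alpha and pi classes, calls were made at 1 month only, each of them lost when certain arrays were left out. Gsta3, an alpha class enzyme, read 1014, 1241 and 925 on the control arrays and 689, 756 and 725 on the knockout arrays, all knockout arrays being lower (-0.53 ± 0.16, adjusted p = 0.0252). Gsta4, which conjugates the lipid peroxidation product hydroxynonenal, passed in no set and ranged from -0.30 to 0.54. Gstp1, the main pi class gene, passed in none, from -0.03 to 0.32. Gstp2 was called higher with overlapping arrays, 521, 544 and 750.4 on the control arrays against 673, 943 and 839 on the knockout arrays (0.43 ± 0.13, adjusted p = 0.0212). Gstp3 was called lower, also with overlap, 42.7, 22.1 and 39.6 on the control arrays against 17.7, 22.1 and 7.01 on the knockout arrays (-0.69 ± 0.23, adjusted p = 0.0447). Gsta3 lost its call without control array 1 (-0.56), control array 2 (-0.41), knockout array 1 (-0.50), knockout array 2 (-0.56) or knockout array 3 (-0.53), with adjusted p from 0.0128 to 0.136 over the 24 fits, and Gstp2 without control array 1 (0.33), control array 2 (0.37), knockout array 2 (0.32) or knockout array 3 (0.41), with adjusted p from 0.00215 to 0.139 over the 24 fits, and with only the arrays of its set. Gstp3 kept its call in 10 of 24 fits and lost it without control array 1 (-0.57), control array 3 (-0.61), knockout array 1 (-0.75) or knockout array 3 (-0.48), with adjusted p from 0.0194 to 0.233 over the 24 fits, and without 10 arrays of other sets. The Gstp3 call also failed under 7 of 12 other settings, among them the replicate block (adjusted p = 0.106), no background correction (-0.21) and offset 50 (-0.37). Many genes of the mu, theta, alpha and pi classes are near copies of each other, and whether a probe also reads a neighbour was not tested.

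The membrane-bound transferases fell together at 1 month, all 3 of them in the C/EBPα knockout. Mgst2 and Mgst3 can join glutathione to the leukotriene precursor and reduce lipid hydroperoxides, and Mgst1 is the abundant microsomal form. Mgst3 read 5552, 5723 and 5332 on the control arrays and 2874, 2841 and 3130.3 on the knockout arrays at 1 month (-0.91 ± 0.10, adjusted p = 2.29e-06), and its other probe was called lower too. In the PPARγ set Mgst3 read 5064, 5749 and 6016 on the control arrays and 3516, 2777 and 3603 on the knockout arrays, the smallest adjusted p of any member there (-0.77 ± 0.10, adjusted p = 5.76e-05). Mgst2 read 370.0, 326 and 379 on the control arrays and 133, 144 and 119 on the knockout arrays at 1 month, 2.53-fold lower (-1.34 ± 0.17, adjusted p = 6.07e-06). This gene was lower in 3 of the 4 sets. At 3 days it read 258, 189 and 232 on the control arrays and 120.0, 156 and 101 on the knockout arrays (-0.79 ± 0.17, adjusted p = 0.0111), and in the PPARγ set it read 710.1, 679 and 485 on the control arrays and 416, 399.8 and 365 on the knockout arrays (-0.63 ± 0.17, adjusted p = 0.0199). Mgst1 read 12549, 12860.5 and 13053 on the control arrays and 10962, 10249.5 and 10425 on the knockout arrays at 1 month (-0.28 ± 0.08, adjusted p = 0.0191). None of these knockout groups overlapped its controls, and on chow the C/EBPα knockout gave 0.01 to 0.09 for the 3 genes. For Mgst3 the PPARγ effect minus the C/EBPα effect on chow was -0.77 ± 0.15 (SE; limma, adjusted p = 0.00581), and the 1 month effect minus the 3 day effect was -0.61 ± 0.15 (SE; limma, adjusted p = 0.0315).

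The Mgst3 calls within the 1 month and PPARγ sets and the 1 month call of Mgst2 held without each array in turn, but other calls of this group did not. For Mgst3 the call on the 1 month effect minus the 3 day effect was lost in 7 of 24 fits, and with the most variable probe, only the arrays of the sets compared or a replicate block. Mgst2 in the PPARγ set lost its call without control array 1 (-0.53), control array 2 (-0.56), knockout array 2 (-0.64) or knockout array 3 (-0.58), with adjusted p from 0.00601 to 0.0980 over the 24 fits. At 3 days it lost it without control array 1 (-0.69), control array 3 (-0.76) or knockout array 3 (-0.65), with adjusted p from 0.00389 to 0.0863 over the 24 fits, and with only the set's arrays. Mgst1 lost its call without control array 2 (-0.28), control array 3 (-0.27), knockout array 2 (-0.26) or knockout array 3 (-0.27), with adjusted p from 0.0136 to 0.0739 over the 24 fits, and with the most variable probe, with only the set's arrays or with a replicate block.

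Among the superoxide dismutases, Sod3, the extracellular enzyme, was called in opposite directions in 2 sets. In the C/EBPα knockout after 3 days of high fat diet it read 946, 1025 and 1046 on the control arrays and 1462, 1761 and 1312 on the knockout arrays, higher at 0.57 ± 0.10 (SE; limma, adjusted p = 0.00199). In the PPARγ knockout it read 534, 614 and 621 on the control arrays and 486, 413 and 442 on the knockout arrays, lower at -0.39 ± 0.10 (SE; limma, adjusted p = 0.0156). Neither pair of groups overlapped. The C/EBPα effect was 0.20 on chow and 0.11 at 1 month, neither called. The PPARγ effect minus these was -0.59 ± 0.14 (SE; limma, adjusted p = 0.0257) and -0.50 ± 0.14 (SE; limma, adjusted p = 0.0417). Sod1, the cytosolic copper and zinc enzyme, read 10744, 10680.1 and 10497 on the control arrays and 9054, 7749.5 and 8528 on the knockout arrays in the PPARγ set (-0.34 ± 0.08, adjusted p = 0.0114), with both other probes called lower. Sod2, the mitochondrial manganese enzyme, passed nowhere, at -0.28 to -0.11. Catalase, the peroxisomal enzyme that splits hydrogen peroxide, read 1199.7, 1041 and 1030.0 on the control arrays and 789, 655 and 808 on the knockout arrays at 1 month, all knockout arrays being lower (-0.53 ± 0.14, adjusted p = 0.00815). Its other C/EBPα values were -0.30 on chow and -0.28 at 3 days, and the PPARγ value was 0.09, none of them called. The PPARγ call of Sod3 was lost without control array 2 (-0.36), control array 3 (-0.35) or knockout array 2 (-0.33), with adjusted p from 0.00611 to 0.0878 over the 24 fits, that of Sod1 without knockout array 2 (-0.28), with adjusted p from 0.00824 to 0.0784 over the 24 fits, and the 1 month call of Cat without knockout array 2 (-0.44), with adjusted p from 0.00435 to 0.0592 over the 24 fits. With only the arrays of the set in the fit, the call of Sod1 and both calls of Sod3 within a set were lost. The replicate block ended the PPARγ call of Sod3 (adjusted p = 0.0593) and the calls on its differences from the C/EBPα effect on chow (adjusted p = 0.0883) and at 1 month (adjusted p = 0.127). The last of these was also lost with the most variable probe, with all probes tested and with only the arrays of the sets compared. The call of Cat was lost with the most variable probe too, at -0.20 (limma, adjusted p = 0.598).

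Peroxiredoxins and thioredoxin reductases gave 1 call each. Prdx3, the mitochondrial peroxiredoxin, read 1982, 2371 and 2017 on the control arrays and 1789.8, 1655 and 1490.2 on the knockout arrays in the PPARγ set, the groups not overlapping (-0.36 ± 0.10, adjusted p = 0.0283). Prdx1, Prdx2 and Prdx4 passed in no set, with values from -0.19 to 0.29. Txnrd3, which combines thioredoxin reductase and glutaredoxin domains, read 424, 414 and 437 on the control arrays and 327, 239 and 278 on the knockout arrays at 1 month, again without overlap (-0.58 ± 0.12, adjusted p = 0.00131). Txnrd1, the cytosolic reductase, and Txnrd2, the mitochondrial form, lay between -0.29 and 0.04 over the 4 sets with no call. The call of Prdx3 was lost without control array 2 (-0.28), knockout array 2 (-0.37) or knockout array 3 (-0.30), with adjusted p from 0.0141 to 0.168 over the 24 fits, and with only the set's arrays or a replicate block.

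Hmox1 and Nqo1, both classical NRF2 targets, were called in different sets and in opposite directions, and the contrast between the genes was not tested. Hmox1, heme oxygenase 1, read 265, 229 and 272 on the control arrays and 419, 449 and 571 on the knockout arrays in the PPARγ set, 1.82-fold higher without overlap (0.86 ± 0.22, adjusted p = 0.0156). At 1 month it read 244, 261 and 246 on the control arrays and 349, 431 and 391 on the knockout arrays, also without overlap. That difference missed the threshold (0.60 ± 0.22, adjusted p = 0.0605). The PPARγ effect minus the 1 month effect was 0.26 ± 0.31 for Hmox1 and was not called (limma, adjusted p = 0.784). Nqo1, a quinone reductase, read 111, 76.1 and 105 on the control arrays and 73.0, 51.4 and 57.9 on the knockout arrays at 1 month, where it was lower (-0.56 ± 0.18, adjusted p = 0.0366), and was 0.07 in the PPARγ set. Hmox1 lost its call without control array 2 (0.79) or knockout array 3 (0.73), with adjusted p from 0.00291 to 0.0772 over the 24 fits, and Nqo1 without control array 1 (-0.47), control array 3 (-0.51), knockout array 2 (-0.47) or knockout array 3 (-0.54), with adjusted p from 0.0141 to 0.155 over the 24 fits. Of the 13 macrophage markers, 4 were called higher in the PPARγ set and 12 at 1 month, and their part in the level of Hmox1 was not tested.

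Of the 14 members called in the PPARγ set, 7 (50%) were also called at 1 month in the C/EBPα set, which is 33.3% of the 21 called there. 6 of the 7 had the same direction: Gstz1, Gsto1, Mgst2 and Mgst3 lower and Gpx3 and Gstt1 higher. Gstm2 was the exception. Over all genes tested, 50.5% of those called in the PPARγ set were also called at 1 month, which is 26.3% of those called there, and 93.2% of the shared genes had the same direction, so the members' shares are near those of all genes. These 2 sets share no arrays. They differ in the gene deleted, the diet, its duration and the age of the mice together, so none of these can be told apart as the source of a difference. Cebpa RNA was lower in both sets, and Pparg RNA was lower in the 1 month set too. All 3 members called at 3 days were also called in the PPARγ set, Gstz1 and Mgst2 in the same direction and Sod3 in the other, against 49.9% of all genes called at 3 days. No member's effect differed between high fat diet and chow at 3 days by the interaction test in limma, in which 0.0688% of all genes did. At an unadjusted p under 0.05, 10 members did. The share of all genes at that looser threshold was not computed, so the 10 cannot be set against the 0.0688%. By adjusted p, the PPARγ and C/EBPα effects on chow differed for 3 members (3.07% of all genes), the 1 month and 3 day effects for 4 (1.8%), and the PPARγ and 1 month effects for 7 (4.89%). Those 7 include Gstt4, which passed the background limit through the PPARγ knockout arrays. Leaving out 1 array ended the Sod3 call in 4 fits on chow, the Mgst3, Gstm2 and Gpx3 calls in 7, 5 and 18 fits between the 2 times, and the Gstt4, Sod3 and Gstm6 calls in 8, 11 and 2 fits between the PPARγ and 1 month effects.

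**Figure D4:**
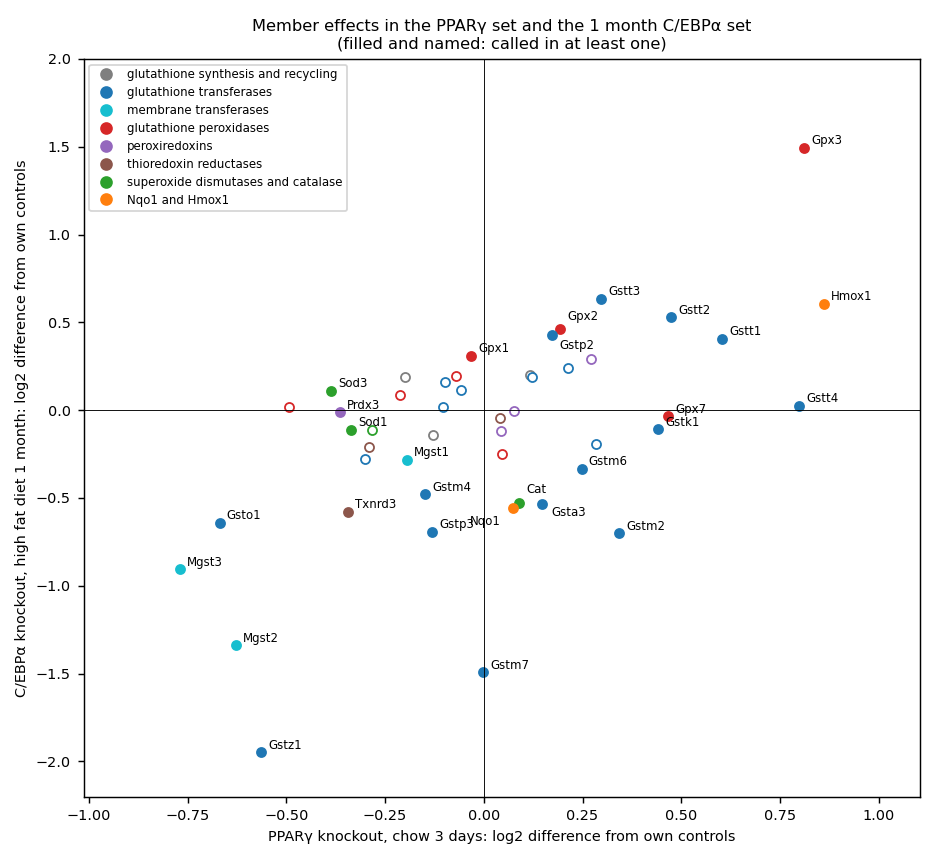
Log2 difference from own controls of each of the 48 members in the PPARγ knockout on chow for 3 days (x axis) against the C/EBPα knockout after 1 month on high fat diet (y axis), coloured by role. Filled and named points were called in at least 1 of the 2 sets. Gpx3 lies at the upper right (0.81 and 1.49), Gstz1 at the lower left (-0.56 and -1.95), and Gstm2 at the lower right (0.34 and -0.70).

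The wider pathway was read from 9 gene lists, none of which was tested as a set. Their counts stand beside the share of all genes called in either direction. That share was 1.08% on chow, 2.34% at 3 days and 18.1% at 1 month in the C/EBPα sets, and 9.43% in the PPARγ set. In cysteine supply and glutathione turnover, 4 of 20 genes tested were higher and 4 lower at 1 month, 1 and 1 at 3 days, 0 and 2 on chow, and 2 and 1 in the PPARγ set. Cdo1, cysteine dioxygenase, which diverts cysteine away from glutathione, was lower at 3 days (-0.97 ± 0.12, adjusted p = 1.21e-04) and at 1 month (-2.05 ± 0.12, adjusted p = 2.36e-10). Ggt5, a gamma-glutamyl transferase that cleaves glutathione outside cells, was higher at 3 days (0.99), at 1 month (1.01 ± 0.13, adjusted p = 1.12e-05) and in the PPARγ set (0.77 ± 0.13, adjusted p = 6.24e-04). The aminopeptidase gene Anpep was higher at 1 month (0.94 ± 0.14, adjusted p = 5.04e-05). Slc1a5, a neutral amino acid carrier, was lower at 1 month (-0.90) and in the PPARγ set (-0.99 ± 0.14, adjusted p = 9.35e-05), where Dpep2 was higher (0.60). On chow the carrier Slc1a4 (-0.66 ± 0.15, adjusted p = 0.0341) and Cth, which makes cysteine from cystathionine (-0.76 ± 0.18, adjusted p = 0.0441), were lower in the C/EBPα knockout.

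Of 15 genes of NADPH supply, the reductant that recycles glutathione, 1 was higher and 3 lower at 1 month and 3 were lower in the PPARγ set. Aldh1l1, a folate enzyme, was lower at 1 month (-1.49 ± 0.15, adjusted p = 5.88e-07) and in the PPARγ set (-0.82 ± 0.15, adjusted p = 0.00137). Mthfd1 (-0.46) and isocitrate dehydrogenase Idh1 (-0.37) were lower and the malic enzyme Me2 (0.43) higher at 1 month, and malic enzyme Me1 (-0.88 ± 0.21, adjusted p = 0.00961) and transaldolase Taldo1 (-0.44) were lower in the PPARγ set. Of 15 thioredoxin and glutaredoxin genes, 3 were higher and 3 lower at 1 month and 4 and 2 in the PPARγ set, with 1 and 1 at 3 days and 1 and 0 on chow. Msrb1, a methionine sulfoxide reductase, was lower at 3 days (-0.51) and 1 month (-0.77 ± 0.12, adjusted p = 1.37e-04) and higher in the PPARγ set (0.57 ± 0.12, adjusted p = 0.00488). Sesn2, a sestrin, likewise was lower at 1 month (-0.71 ± 0.12, adjusted p = 2.53e-04) and higher in the PPARγ set (0.89 ± 0.12, adjusted p = 6.83e-05). Glrx5, the mitochondrial glutaredoxin, was lower in the PPARγ set (-0.68 ± 0.07, adjusted p = 4.81e-06), where Sesn1 was higher (0.44). Glrx was higher (0.64) and Msrb3 lower (-0.63) at 1 month, Sesn1 was higher at 3 days (0.38), and sulfiredoxin Srxn1 was higher on chow (0.42 ± 0.09, adjusted p = 0.0341).

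Of 11 NRF2 regulators, Nfe2l2, which encodes NRF2 (0.57 ± 0.11, adjusted p = 9.15e-04), and its partner Mafg (0.32) were higher at 1 month, and Nfe2l1 was lower in the PPARγ set (-0.30). Among 17 other NRF2 targets and glutathione users, 6 were higher and 2 lower at 1 month and 3 were higher in the PPARγ set. Carbonyl reductase Cbr3 was higher in both (0.90 ± 0.10, adjusted p = 1.25e-06 at 1 month, 0.37 in the PPARγ set), as was Hpgds, the glutathione-using prostaglandin D synthase of immune cells, at 1 month (0.89 ± 0.17, adjusted p = 6.11e-04). Leukotriene synthase Ltc4s (-0.73) and glyoxalase Hagh (-0.38) were lower at 1 month, and epoxide hydrolase Ephx1 (0.43) and Osgin1 (0.57) were higher in the PPARγ set.

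Of 9 heme and iron genes, 4 were higher and 1 lower at 1 month and 2 and 1 in the PPARγ set. The iron exporter Slc40a1 was higher in both (0.73 ± 0.15, adjusted p = 0.00111 at 1 month, 0.82 ± 0.15, adjusted p = 9.62e-04 in the PPARγ set), and so was ferritin light chain Ftl1 (0.51 and 0.39). Flvcr1 was higher (0.49) and Slc48a1 lower (-0.33) at 1 month, and the transferrin receptor Tfrc was lower in the PPARγ set (-0.75). Among 17 selenoprotein genes, Selenop, the selenium carrier, was higher at 1 month (0.47) and in the PPARγ set (0.37), where Selenon was higher (0.37) and Sephs2, which makes the selenium donor, lower (-0.76 ± 0.13, adjusted p = 6.24e-04). Of 12 superoxide and peroxide sources, 5 were higher and 1 lower at 1 month. Cybb, which belongs to the phagocyte oxidase, and Duox2, Maoa, Ero1a and Hao1 did not pass the background limit and were not tested. The phagocyte oxidase subunits Cyba (0.75 ± 0.14, adjusted p = 4.44e-04), Ncf1 (0.78) and Ncf4 (0.74) and the copper chaperone Ccs (0.31) were among those higher, in the set where 12 of 13 macrophage markers were also higher. Monoamine oxidase Maob (0.70 ± 0.10, adjusted p = 7.87e-05) and Xdh (0.35) were higher in the PPARγ set. Of 4 metallothioneins, Mt1 was higher at 3 days (0.53 ± 0.09, adjusted p = 0.00295) and at 1 month (0.40).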

How the data were processed

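RNA of mouse subcutaneous adipose tissue was read on 24 Illumina BeadChip arrays, 3 per group, and groups were taken from the sample titles. The table the authors deposited gives a linear intensity for each of 45281 probes on every array. Its values show quantile normalization within each of 4 sets of 6 arrays, and no background removed. Scanner software is not given in the sources used. Raw signals in another deposited table, 96 value columns named by chip, were left out because no label ties a column to a sample.

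Each set's background was taken as the peak of its log2 intensities, with an SD from the values below it, and removed with the normexp model of limma 3.58.1 (R 4.3.3), 16 was added and log2 taken, so folds of dim genes are understated. Printed intensities are background-corrected, before that addition. Probes above background (5% false positives) on at least 3 arrays were kept (30257), named through the platform annotation (34885 probes with 1 symbol, 18 with several, 10378 not listed), with symbols updated by Entrez identifier in the RefSeq table of GRCm38.p6 (34807 matched), and 1 probe per gene was used (14544 genes). A linear model of the 8 group means over all 24 arrays was tested with limma's moderated statistics, two-sided, with Benjamini-Hochberg adjustment over all genes, and called at adjusted p under 0.05. The fit was tested on simulated data, where the share of calls that were unchanged genes exceeded the nominal 5% in the chow and 3 day C/EBPα sets but not in the other sets. This was a single draw with the same number of changed genes in every set, unlike the data, so it gives no error share for the other sets. The number of arrays limits the precision. Within groups Pearson's r between arrays was 0.992 to 0.997, and no array repeated another. Every called member is named, with values of all arrays for up to 6 per comparison and beyond. The members and gene lists were chosen with earlier results of these data known, so no test over the members as a set is given. Alternatives were background, offset, filter, probe choice, arrays fitted, weights, variance trend, replicate block, joint normalization and leaving out each array.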

Additional observations from a re-analysis of the deposited data

Results flagged for a closer look

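The following members had knockout effects that differed between sets in limma's interaction contrast, adjusted over all genes tested. Values are log2 differences of effects, and each set's effect is taken against its own controls. The sets differ in more than 1 respect and were normalized apart, and the part of either in these differences was not tested.

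On chow for 3 days, PPARγ minus C/EBPα effect, 3 members differed. Sod3 differed by -0.59 (-0.39 against 0.20), and the adjusted p ran from 0.0122 to 0.0746 over the 24 left-out arrays, with the call lost in 4. A replicate block also ended it. Mgst3 differed by -0.77 (-0.77 against 0.01), and the adjusted p ran from 0.00355 to 0.0202 over the 24 left-out arrays, with the call lost in 0. Gpx8 differed by -1.51 (-0.49 against 1.02), and the adjusted p ran from 0.00138 to 0.0196 over the 24 left-out arrays, with the call lost in 0.

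In the C/EBPα knockout on high fat diet, 1 month minus 3 days, 4 members differed. Gstz1 differed by -1.23 (-1.95 against -0.72), and the adjusted p ran from 4.24e-05 to 7.05e-04 over the 24 left-out arrays, with the call lost in 0. Mgst3 differed by -0.61 (-0.91 against -0.29), and the adjusted p ran from 0.0153 to 0.108 over the 24 left-out arrays, with the call lost in 7. Gstm2 differed by -0.49 (-0.70 against -0.21), and the adjusted p ran from 0.0222 to 0.0895 over the 24 left-out arrays, with the call lost in 5. Both calls were also lost with the most variable probe, with only the arrays of the sets compared or with a replicate block. Gpx3 differed by 0.96 (1.49 against 0.53), and the adjusted p ran from 0.0121 to 0.143 over the 24 left-out arrays, with the call lost in 18. It was also lost with no filter, the most variable probe, all probes or only the arrays of the sets compared.

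For the PPARγ effect on chow minus the C/EBPα effect at 1 month of high fat diet, 7 members differed. Gstt4 differed by 0.77 (0.80 against 0.02), and the adjusted p ran from 0.00863 to 0.0934 over the 24 left-out arrays, with the call lost in 8. Of the 5 arrays on which Gstt4 was above background 3 were the PPARγ knockout arrays, so nothing is supported with its test, and its call was also lost with a replicate block or without background correction (0.19). Gstz1 differed by 1.38 (-0.56 against -1.95), and the adjusted p ran from 1.51e-06 to 3.57e-05 over the 24 left-out arrays, with the call lost in 0. Sod3 differed by -0.50 (-0.39 against 0.11), and the adjusted p ran from 0.0188 to 0.116 over the 24 left-out arrays, with the call lost in 11. It was also lost with the most variable probe, all probes, only the arrays of the sets compared or a replicate block. Gstm6 differed by 0.58 (0.25 against -0.33), and the adjusted p ran from 0.00749 to 0.0522 over the 24 left-out arrays, with the call lost in 2. Gstm2 differed by 1.04 (0.34 against -0.70), and the adjusted p ran from 3.98e-06 to 2.60e-05 over the 24 left-out arrays, with the call lost in 0. Gstm7 differed by 1.49 (0.00 against -1.49), and the adjusted p ran from 2.75e-04 to 0.00326 over the 24 left-out arrays, with the call lost in 0. Gstk1 differed by 0.55 (0.44 against -0.11), and the adjusted p ran from 0.00760 to 0.0339 over the 24 left-out arrays, with the call lost in 0. With the most variable probe it was 0.12 (adjusted p = 0.968) and the call was lost.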

How the results depend on the processing

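Over 12 other settings and 24 fits that each left out 1 array, 0 of 53 member values changed sign. These values are the members' calls within sets and between effects. The genes named from the pathway lists, the markers and the targeted genes were not checked this way. Of the 53, 30 were called under every setting in which they were tested, 26 without any of the arrays and 22 throughout. Gstt4 in the PPARγ set is in each of these counts. It was tested under 11 settings only, being absent with the limit of 12 arrays, and nothing is supported with its test. Members called higher in the C/EBPα knockout on chow (1) became 4 without background correction or with offset 50, 3 with no filter or a variance trend, and 0 with only the set's arrays or with the replicate block. Members called lower in the PPARγ knockout (7) became 4 with only the set's arrays. At 3 days of high fat diet, members called higher (1) became 3 without background correction or with a variance trend, 2 with offset 50, with the limit of 12 arrays or with array weights, and 0 with only the set's arrays, and members called lower (2) became 0 with only the set's arrays and 5 with array weights. The members' median moved from 0.073 to 0.052 on chow without background correction, from 0.020 to -0.035 in the PPARγ set with the most variable probe, and from -0.042 to -0.11 at 1 month with the limit of 12 arrays. Differing effects on chow (3) became 5 without background correction, those between high fat diet and chow (0) became 1 with the most variable probe, those between 1 month and 3 days (4) became 7 without background correction and 1 with the most variable probe or only the arrays of the sets compared, and those between the PPARγ and 1 month effects (7) became 11 with offset 50 or a variance trend and 14 with array weights. The cause was not tested.

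Leaving out 1 array, counts higher ran from 0 to 3 on chow, 5 to 7 in the PPARγ set, 1 to 2 at 3 days and 4 to 8 at 1 month, and counts lower from 0 to 0, 3 to 8, 1 to 3 and 9 to 14. Medians ran from 0.060 to 0.10, -0.017 to 0.022, -0.083 to -0.010 and -0.070 to -0.040, and differing effects from 2 to 5, 0 to 0, 1 to 5 and 5 to 8.

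Same-numbered control and knockout arrays did not deviate together: r ran from -0.258 to 0.0958, 0 of 12 pairs were above 0.1, and 3 of 24 arrays correlated best with their own number. No pairing by number was seen, but with 3 arrays per group this cannot show that the arrays were unpaired. Few arrays and a median signal close to background (151, 122, 110.2 and 116 against 132, 114, 104 and 108 in the chow, PPARγ, 3 day and 1 month sets) limit dim genes.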
